A study of Homo sapiens with 24 samples.

Results

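The genes described here encode the proteins of the mitochondrial ribosome. They were chosen by name, as the rows whose symbol is MRPL or MRPS followed by a number and at most one letter, and whose mean normalized count was 10 or more. 75 genes met this rule in each of the 4 deposited comparisons, out of 15168 genes with such a mean in at least 1 comparison. 47 of them carry a large subunit name (MRPL) and 28 a small subunit name (MRPS), and they lie on 21 chromosomes. A further gene, MRPS24, was listed in the RPE1 comparisons only, with mean normalized counts of 4.30 and 4.29, and did not pass the filter.

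4 aneuploid human cell lines were each set against the parental line from which they were made by mRNA sequencing, with 3 libraries on either side and 24 in all. HCT116 is a colorectal cancer cell line, RPE1 is a retinal pigment epithelial cell line immortalized with hTERT, and an asterisk marks lines that also express the fluorescent histone H2B-GFP. HCT116 5/4 (4 copies of chromosome 5) and RPE1 5/3 12/3 (3 copies of chromosomes 5 and 12) were compared with HCT116 and RPE1, which lack H2B-GFP. HCT116* 8/3 c7 (3 copies of chromosome 8) and RPE1* 21/3 (3 copies of chromosome 21) were compared with HCT116* and RPE1*, so that both sides carry the histone. Each aneuploid line is 1 line, and its 3 libraries are not stated to come from separate derivations. HCT116 5/4 came from another laboratory. The paper's list of lines gives the same source for HCT116, whereas its methods give a culture collection. The effect of the extra chromosome and other differences between an aneuploid line and its parental line cannot be told apart. The tables hold no values of single libraries. Each value below is therefore the mean over 6 libraries or the fold change between 3 and 3, with its standard error (SE), and whether single libraries overlap cannot be seen. In bulk RNA, fewer cells of a type and less RNA per cell cannot be told apart.

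The mitochondrial ribosome translates the few mRNAs encoded by the mitochondrial genome, all of which specify membrane subunits of the respiratory chain and the ATP synthase. Its rRNAs are made inside the organelle, whereas all of its proteins are encoded in the nucleus, made in the cytosol and imported. The small subunit decodes the mRNA, and the large subunit forms peptide bonds and guides the new chain through its exit tunnel to the inner membrane. 46 of the 75 genes have a bacterial homologue and 29 encode proteins found only in mitochondria. Some names do not match the structure. MRPS30 and MRPS18A are proteins of the large subunit, and MRPS36 is a subunit of the 2-oxoglutarate dehydrogenase complex and not of the ribosome.

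The genes stood well above the median gene in level in all lines. Mean normalized counts ranged from 228 to 2686 in the HCT116 5/4 comparison, from 313 to 4136 in HCT116* 8/3 c7, from 191 to 2889 in RPE1 5/3 12/3 and from 52.3 to 2029 in RPE1* 21/3. As counts per kb of annotated exons, the median member stood at the 82.1, 84.4, 77.3 and 74.8 percentile of all genes in these comparisons. Per kb, MRPL12, a protein of the L7/L12 stalk that recruits translation factors, was the highest in both HCT116 comparisons (2208 and 3211). MRPL51 was the highest in both RPE1 comparisons (1927 and 1095). MRPS34 (1350, 1767 and 1101) was among the 3 highest in all but RPE1* 21/3, and MRPL41 (1291 and 887) in HCT116 5/4 and RPE1* 21/3. MRPS25 was the lowest in every comparison, between 26.3 and 42.2 per kb, followed by MRPS18C, between 32.0 and 64.4. The third lowest was MRPL46 in both HCT116 comparisons (61.3 and 72.2), MRPS22 in RPE1 5/3 12/3 (47.8) and MRPS21 in RPE1* 21/3 (34.9). The length used joins all annotated exons of a gene. It was 18309 bases for MRPS25, 16385 for MRPS22, 6402 for MRPL46 and 4866 for MRPS18C. For MRPL12, MRPL51 and MRPS34 it was 1009, 1388 and 1092 bases. The part of this length in the order per kb was not tested. Per kb of the longest transcript, the median member stood at the 83.6, 85.8, 76.9 and 75.6 percentile.

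Many promoters of these genes hold sequence motifs that the choice by name did not use. RefSeq promoters on GRCh38.p14, each covering 250 bases before and 50 bases after a start site, were found for 66 of the genes, 82 promoters in all. The core of the ETS motif, CCGGAAG on either strand, was in 39.0% of them and in 10.3% of all 35116 promoters. The core of the YY1 motif, AAGATGG on either strand, was in 31.7% of them and in 5.84% of all promoters, and that of the NRF1 motif, GCATGCG, in 8.54% and 3.91%. Any of the 3 cores was in 59.8% of the 82 promoters, and the others held none. The 35116 promoters belong to 27305 genes and were not limited to expressed genes. Whether expressed genes of other kinds hold the cores as often was not tested. The ETS core ends in the letters with which the YY1 core begins, and 0 of the 82 promoters held them joined in this way. The ETS and YY1 cores were in 36% and 34% of the large subunit promoters and in 43.8% and 28.1% of the small subunit promoters. The 5 stretches that follow each show 30 bases before the start site, in 5 genes that were called changed in at least 1 line. Each is read along the strand of its gene, with the match in capitals. A match is a match of letters only.
MRPL22, NRF1, chr5:154941039-154941068, plus strand: ccagagtattgcGCATGCGtgctgtccaga
MRPL36, YY1, chr5:1799854-1799883, minus strand: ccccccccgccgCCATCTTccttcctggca
MRPL38, ETS, chr17:75905075-75905104, minus strand: gtccaacgggcaCTTCCGGagccgggcgtc
MRPS21, ETS, chr1:150293831-150293860, plus strand: ggcgattccgtaatttccgCTTCCGGtagt
MRPS26, ETS, chr20:3046003-3046032, plus strand: ttccccgcgccgCTTCCGGggcacggtggc
The matches begin 22, 34, 208, 11 and 37 bases before the start site in MRPL22, MRPL36, MRPL38, MRPS21 and MRPS26. Those in all but MRPL22 are the reverse complement of the letters given above. MRPL22 also has a match on its other strand that overlaps the one shown and begins 23 bases before the start site. The genes shown did not share a direction. MRPL38 and MRPS26 were lower in HCT116 5/4, MRPS21 was lower in RPE1* 21/3, and MRPL22 and MRPL36 were higher in RPE1 5/3 12/3. Promoters of the called genes MRPS7, MRPS27, MRPS30 and MRPL11 also hold a YY1 match that is not shown, as do those of MRPL22 and MRPL38. Those of the called genes MRPL12, MRPS14, MRPS35 and MRPS6 hold none of the ETS, YY1 and NRF1 cores. No promoter was found for the called genes MRPL21 and MRPS36. MRPS7 was lower in HCT116 5/4, and MRPS27, MRPS30 and MRPL11 were higher in RPE1 5/3 12/3. MRPS30 was also higher in HCT116 5/4.

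As a set, the genes lay below the other genes in HCT116 5/4, above them in RPE1 5/3 12/3 and close to them in HCT116* 8/3 c7 and RPE1* 21/3. 60 genes had a log2 fold change below 0 and 15 above in HCT116 5/4, with a median of -0.20 where all 13887 genes had a median of 0.00. 64 lay above 0 and 11 below in RPE1 5/3 12/3, with a median of 0.18 beside 0.00 for all genes. In HCT116* 8/3 c7, 41 lay above and 34 below 0, with a median of 0.02. In RPE1* 21/3, 18 lay above and 57 below, with a median of -0.07. No test was made over the set.

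**Figure D1:**
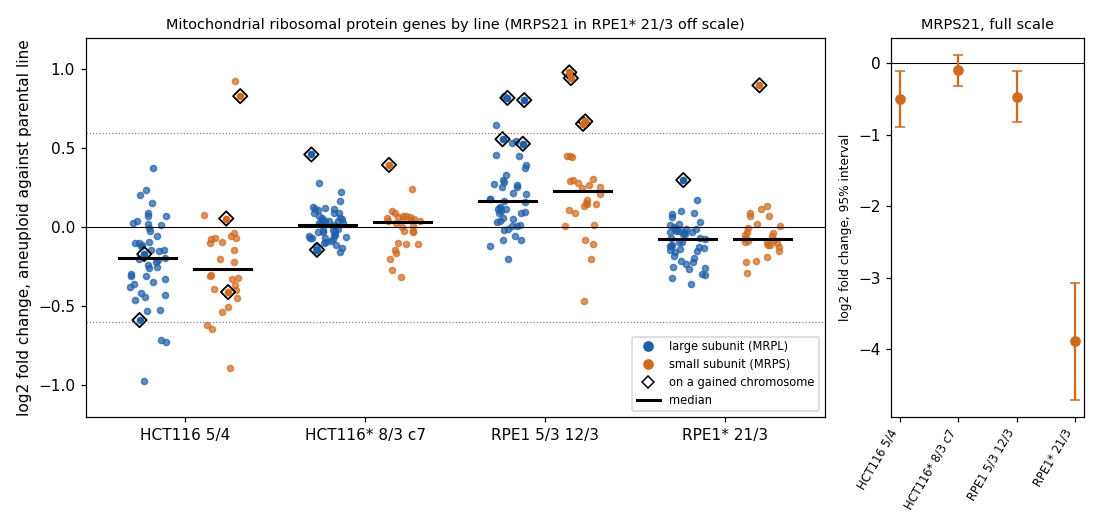
Log2 fold changes of the 75 genes in the 4 lines (vertical axis, 1 point per gene), by line and by subunit name on the horizontal axis, with medians as black bars, 0.6 and -0.6 as dotted lines and genes on a gained chromosome in diamonds. The right panel gives MRPS21 with 95% intervals, since its value of -3.89 in RPE1* 21/3 lies outside the left panel. Points of HCT116 5/4 lie mostly below 0, those of RPE1 5/3 12/3 mostly above 0.

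Single genes were called changed at an adjusted p under 0.05, from the Wald test of the authors' DESeq2 fit with Benjamini-Hochberg adjustment over all genes, and an absolute log2 fold change above 0.6. In HCT116 5/4, 7 of the 75 genes were called (9.33%), beside 20.6% of all genes. Of these, 2 were higher, beside 10.8% of all genes, and 5 were lower, beside 9.83%. The count was 0 in HCT116* 8/3 c7 in this DESeq2 test, beside 1.8% of all genes, and 3 members higher and 2 lower had an unadjusted p under 0.05. There 2 members had an adjusted p under 0.05, both higher, beside 1.85% of all genes. The RPE1 5/3 12/3 comparison had 8 called members (10.7%), beside 16.6% of all genes. All 8 were higher, beside 8.13% of all genes, and 13 members had an adjusted p under 0.05, all higher, beside 10.4%. RPE1* 21/3 had 1 called member (1.33%), beside 3.31% of all genes, and it was lower, beside 1.65%. Counted over both directions, the share of called members was below that of all genes in every line. The 95% interval of the fold change lay wholly within 0.6 of 0 for 73 genes in HCT116* 8/3 c7, 52 in RPE1* 21/3, 38 in RPE1 5/3 12/3 and 25 in HCT116 5/4. For the other genes a change of that size was not excluded by the interval.

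Large and small subunit names had similar medians. The large and small subunit medians were -0.19 and -0.26 in HCT116 5/4, 0.02 and 0.03 in HCT116* 8/3 c7, 0.17 and 0.23 in RPE1 5/3 12/3 and -0.07 and -0.07 in RPE1* 21/3. Called genes were 2 large and 5 small in HCT116 5/4, 4 and 4 in RPE1 5/3 12/3 and 0 and 1 in RPE1* 21/3. Placed by structure instead of by name, with MRPS30 and MRPS18A in the large subunit and MRPS36 left out, the medians were -0.17 and -0.31 in HCT116 5/4 and 0.18 and 0.17 in RPE1 5/3 12/3. Split by origin, the medians of bacterial homologues and mitochondria-specific proteins were -0.22 and -0.14 in HCT116 5/4 and 0.15 and 0.26 in RPE1 5/3 12/3. All 29 mitochondria-specific genes lay above 0 in RPE1 5/3 12/3, beside 35 of the 46 bacterial homologues. The mitochondria-specific group includes MRPS27, MRPS30, MRPS36, MRPS35, MRPL42 and MRPL51, which lie on chromosomes gained in this line. The 8 gained genes of both groups had a median of 0.74, beside 0.16 for the 67 not gained. The part of extra copies in the contrast by origin was not tested. The 3 genes of the L7/L12 stalk (MRPL10, MRPL11 and MRPL12) had medians of -0.52 in HCT116 5/4 and 0.54 in RPE1 5/3 12/3. The 5 genes around the exit tunnel (MRPL22, MRPL23, MRPL24, MRPL45 and MRPL47) had medians of -0.17 and 0.40.

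The 5 genes on chromosome 5 could be followed in both lines that carry extra copies of it. In RPE1 5/3 12/3, with 3 copies, all 5 were called higher, beside 232 of all 619 chromosome 5 genes. MRPS36 rose by 0.98 (SE 0.22, adjusted p = 8.62e-05) and MRPS27, a pentatricopeptide repeat protein of the small subunit, by 0.94 (SE 0.16, adjusted p = 8.04e-08). MRPL36 rose by 0.82 (SE 0.20, adjusted p = 0.000461), MRPL22, at the exit tunnel, by 0.81 (SE 0.20, adjusted p = 0.000893) and MRPS30 by 0.67 (SE 0.18, adjusted p = 0.00167). Their median was 0.82, beside 0.53 for all 619 chromosome 5 genes and 0.58 for a change from 2 to 3 copies. In counts, the mean and fold change of MRPS27 correspond to about 1976 in RPE1 and 3803 in RPE1 5/3 12/3.

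Of the same 5 genes, 1 was called higher in HCT116 5/4, with 4 copies, beside 343 of all 617 chromosome 5 genes. MRPS30 rose by 0.83 (SE 0.21, adjusted p = 0.000726), from about 1488 to 2646 normalized counts. The values were 0.06 for MRPS36 (SE 0.28), -0.17 for MRPL22 (SE 0.24), -0.41 for MRPS27 (SE 0.19, adjusted p = 0.131) and -0.59 for MRPL36 (SE 0.24, adjusted p = 0.0716), none of which passed the test. The median of the 5 was -0.17, beside 0.79 for all 617 chromosome 5 genes and 1 for a change from 2 to 4 copies. The 95% interval of MRPL36 ran from -1.07 to -0.11, that of MRPS27 from -0.79 to -0.03, that of MRPL22 from -0.63 to 0.29 and that of MRPS36 from -0.48 to 0.60. The genes nearest to them also differed among themselves. Other genes within 5 Mb had medians of 1.19 around MRPS30, 0.52 around MRPL36, 0.18 around MRPL22, 0.02 around MRPS27 and -0.11 around MRPS36 in HCT116 5/4. The same windows had medians between 0.42 and 0.58 in RPE1 5/3 12/3. In windows of 20 Mb, the chromosome 5 medians ran from 0.27 between 60 and 80 Mb, which holds MRPS27 and MRPS36, to 1.29 between 40 and 60 Mb, which holds MRPS30, in HCT116 5/4. They ran from 0.45 to 0.61 in RPE1 5/3 12/3, leaving out the last window, which holds 7 genes.

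The difference between the lines was tested for each gene as the difference of the log2 fold changes over their joint standard error, adjusted over all genes and the 6 pairs of lines. None of the 4 comparisons shares libraries with another. HCT116 5/4 minus RPE1 5/3 12/3 was -1.41 for MRPL36 (95% interval -2.02 to -0.79, adjusted p = 0.000188), -1.35 for MRPS27 (-1.85 to -0.86, adjusted p = 2.68e-06) and -0.97 for MRPL22 (-1.59 to -0.36, adjusted p = 0.0186). It was -0.92 for MRPS36 (-1.61 to -0.24, adjusted p = 0.0627), which missed the threshold, and 0.16 for MRPS30 (-0.38 to 0.70). Over all 75 genes, 12 differed between these lines (16%, beside 16.9% of all genes tested). All 12 were higher in RPE1 5/3 12/3, beside 7.77% of all genes in that direction. The 12 include MRPL36, MRPS27 and MRPL22 and, on chromosome 12, MRPS35.

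**Figure D2:**
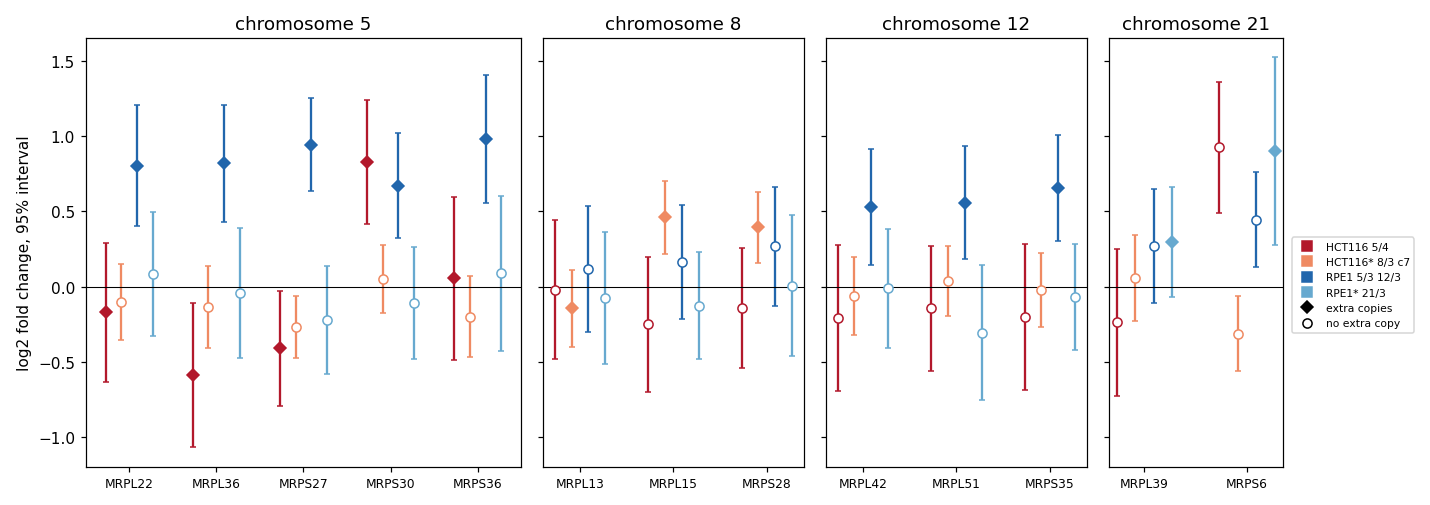
Log2 fold change with 95% interval (vertical axis) of the genes on chromosomes 5, 8, 12 and 21 in the 4 lines, 1 colour per line. Filled diamonds mark a line with extra copies of the gene's chromosome and open circles a line without. On chromosome 5 the RPE1 5/3 12/3 values lie between 0.67 and 0.98 and those of HCT116 5/4 between -0.59 and 0.83.

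The genes on the other gained chromosomes lay on both sides of the median of their chromosome. On chromosome 12 in RPE1 5/3 12/3, MRPS35 rose by 0.66 (SE 0.18, adjusted p = 0.00267) and was called. MRPL51 at 0.56 (SE 0.19, adjusted p = 0.0219) and MRPL42 at 0.53 (SE 0.20, adjusted p = 0.0375) passed the test but lay under the fold threshold. All 685 chromosome 12 genes had a median of 0.43, and 182 of them were called higher. On chromosome 8 in HCT116* 8/3 c7, MRPL15 at 0.46 (SE 0.12, adjusted p = 0.00839) and MRPS28 at 0.40 (SE 0.12, adjusted p = 0.0370) passed the test under the fold threshold, and MRPL13 had a value of -0.14 (SE 0.13). The 465 chromosome 8 genes had a median of 0.22, and 141 of them passed the test on the higher side. With the stronger shrinkage of this line undone, the median of its 3 members on chromosome 8 was 0.45 instead of 0.40. Genes within 5 Mb had medians of 0.33 around MRPL15, 0.14 around MRPS28 and -0.09 around MRPL13. On chromosome 21 in RPE1* 21/3, MRPS6 had a value of 0.90 (SE 0.32, adjusted p = 0.111) and MRPL39, which resembles a tRNA synthetase, 0.30 (SE 0.19, adjusted p = 0.778). Neither passed the test. The 126 chromosome 21 genes had a median of 0.56. In the lines where their chromosome was not gained, the chromosome 8, 12 and 21 genes ranged from -0.30 to 0.27, apart from MRPS6.

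MRPS6, a small subunit protein with a bacterial homologue, rose by 0.93 in HCT116 5/4 (SE 0.22, adjusted p = 0.000360), where chromosome 21 was not gained. Its values were -0.31 in HCT116* 8/3 c7 (adjusted p = 0.270) and 0.45 in RPE1 5/3 12/3 (adjusted p = 0.0326). SLC5A3, a myo-inositol transporter gene, begins inside MRPS6 and shares 265 bases of exon with it, 6.20% of the annotated exon bases of MRPS6. SLC5A3 had log2 fold changes of 2.16 in HCT116 5/4 and -0.50 in HCT116* 8/3 c7. Its values were 0.71 in RPE1 5/3 12/3 and 1.15 in RPE1* 21/3. All 4 came with adjusted p under 0.05 in the DESeq2 fits and were of the same sign as MRPS6 in each line. The part of shared reads in the MRPS6 values was not tested. In all, 31 of the 75 genes share exon bases with another protein-coding gene in the GENCODE annotation. Reads were counted on RefSeq exons, where the overlaps may differ. The stated counting options name no strand setting, so that reads from overlapping genes on opposite strands cannot be told apart.

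The 5 genes called lower in HCT116 5/4 were MRPL12, MRPS7, MRPL38, MRPS26 and MRPS14. MRPL12 fell by 0.97 (SE 0.23, adjusted p = 0.000353), from about 2950 to 1506 normalized counts. MRPS7 fell by 0.89 (SE 0.21, adjusted p = 0.000177) and MRPL38 by 0.73 (SE 0.23, adjusted p = 0.00952). These 3 genes lie at 73.3 to 79.7 Mb of chromosome 17, where the other genes within 5 Mb had medians of -0.54, -0.49 and -0.47. MRPS26 fell by 0.64 (SE 0.23, adjusted p = 0.0288) and MRPS14 by 0.62 (SE 0.23, adjusted p = 0.0401), with medians of 0.12 and -0.12 for their neighbours on chromosomes 20 and 1. The values of the 5 genes ran from -0.20 for MRPS14 to 0.29 for MRPL12 in RPE1 5/3 12/3, and none passed the test. In the GENCODE annotation, MRPL12 shares 69.5% of its exon bases, and MRPL38 41.1%, with another protein-coding gene on the same strand. Those other genes carry no symbol there. Reads were counted on RefSeq exons, and whether those genes were among the ones counted was not tested.

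Outside the gained chromosomes, 2 of 67 genes (2.99%) were called in RPE1 5/3 12/3, beside 14.7% of all genes that were not gained. MRPL21 rose by 0.83 (SE 0.22, adjusted p = 0.00150) and MRPL11, of the stalk, by 0.65 (SE 0.22, adjusted p = 0.0202). They lie at 68.7 and 66.2 Mb of chromosome 11, with medians of 0.39 and 0.35 for genes within 5 Mb. MRPL48, at 0.54 (adjusted p = 0.0350) on the same chromosome, passed the test under the fold threshold, as did MRPL10, at 0.54 (adjusted p = 0.0135) on chromosome 17 among neighbours with a median of -0.05. The 67 genes that were not gained had a median of 0.16, with 56 above 0, beside -0.03 for all genes that were not gained. In HCT116 5/4 the 70 such genes had a median of -0.20, beside -0.02.

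**Figure D3:**
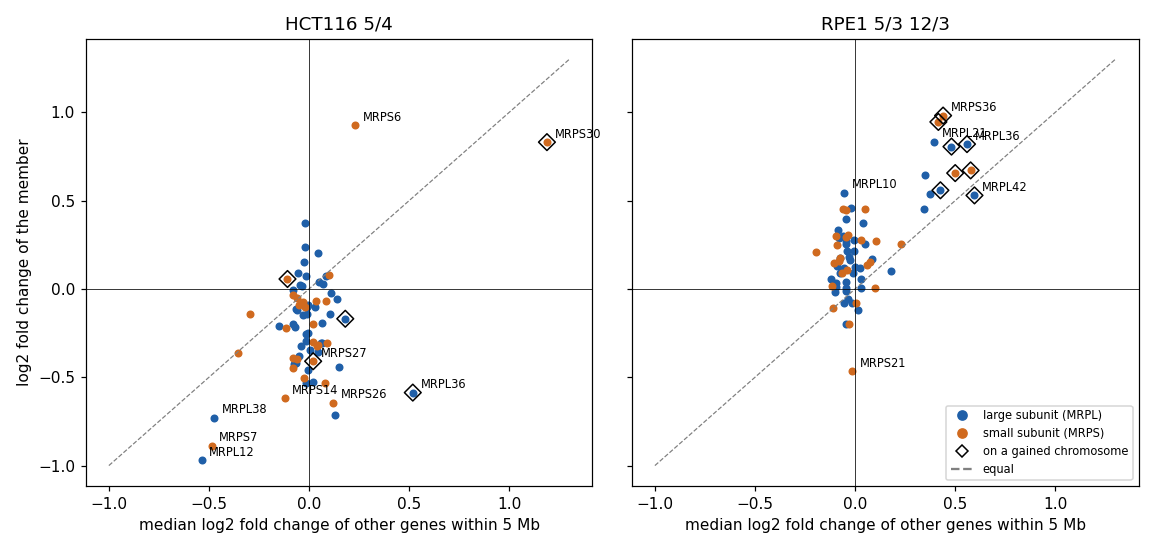
Log2 fold change of each gene (vertical axis) against the median log2 fold change of the other genes within 5 Mb (horizontal axis) in HCT116 5/4 and RPE1 5/3 12/3, with a dashed line where both are equal and diamonds on gained chromosomes. In HCT116 5/4, 60 of 74 genes lie below the line, and in RPE1 5/3 12/3, 12 of 75 do.

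Set beside their neighbours within 5 Mb, 60 of 74 genes lay lower than the neighbours' median in HCT116 5/4, by a median of -0.21. 63 of 75 lay higher in RPE1 5/3 12/3, by a median of 0.17. The counts were 35 lower of 74 in HCT116* 8/3 c7 and 56 lower of 75 in RPE1* 21/3. Across genes, the rank correlation of a gene with its neighbours was 0.16 in HCT116 5/4, 0.26 in HCT116* 8/3 c7, 0.43 in RPE1 5/3 12/3 and 0.24 in RPE1* 21/3. These are descriptions over 74 or 75 genes that share libraries and in part neighbours.

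The largest change of any of the 75 genes in the 4 lines was the fall of MRPS21, a small subunit protein with a bacterial homologue, in RPE1* 21/3. Its mean over both groups was 52.3 normalized counts, and its log2 fold change was -3.89 (SE 0.42, 95% interval -4.70 to -3.07, adjusted p = 3.79e-18), 14.8-fold lower than in RPE1*. This corresponds to about 98.0 counts in RPE1* and 6.62 in RPE1* 21/3. With the shrinkage of the deposited fit undone, the log2 fold change was -4.65, a larger fall than in the deposited fit. In the other comparisons the mean of MRPS21 was 1045, 1607 and 451, and the value was -0.51 in HCT116 5/4 (adjusted p = 0.0550), -0.10 in HCT116* 8/3 c7 and -0.47 in RPE1 5/3 12/3 (adjusted p = 0.0529), where none passed the test. By the same computation RPE1 without the histone had about 523 counts. The RPE1* value was lower than this, although the tables were normalized separately.

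The genes on either side of MRPS21 on chromosome 1 were not called. MRPS21 lies at chr1:150266281-150281414 on the plus strand of GRCh37. In RPE1* 21/3, APH1A, a subunit of gamma-secretase, had a value of -0.21 (SE 0.21). PRPF3, a splicing factor, had 0.09 (SE 0.17) and RPRD2 had 0.10 (SE 0.23). The 129 genes within 5 Mb had a median of 0.01. RPE1* 21/3 differed from each of the other lines in MRPS21, by 3.38 (95% interval 2.48 to 4.29) from HCT116 5/4, 3.79 (2.94 to 4.63) from HCT116* 8/3 c7 and 3.42 (2.53 to 4.31) from RPE1 5/3 12/3. The adjusted p of the difference, from the normal test over all genes and pairs, was 4.22e-12 for the RPE1 lines. The GENCODE annotation lists 8 pseudogenes of MRPS21, the most of any of the 75 genes, and whether reads were assigned to them was not tested. MRPS21, MRPS17 and MRPL33 were the only genes below 0 in all 4 lines, and 0 were above 0 in all 4.

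**Figure D4:**
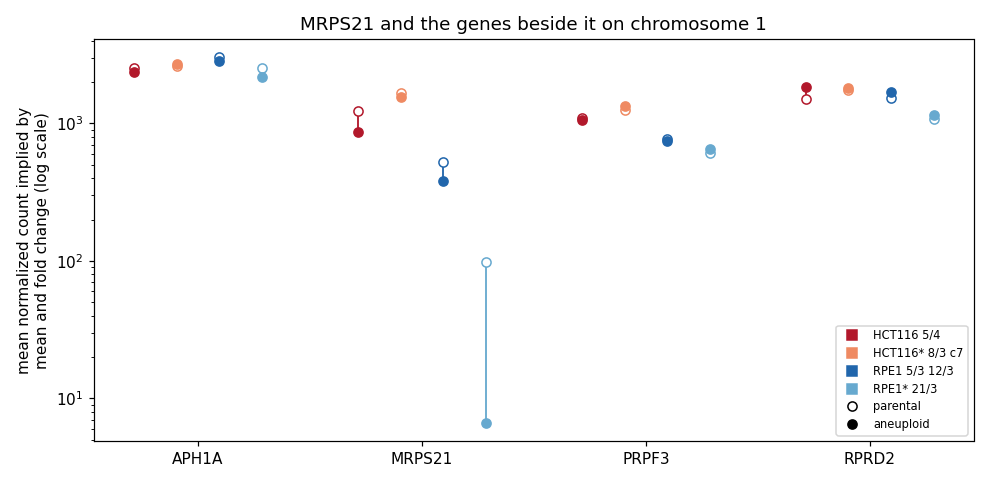
Mean normalized counts of MRPS21 and 3 genes beside it (vertical axis, log scale) in each parental line (open) and aneuploid line (filled), computed from the mean over both groups and the fold change, 1 colour per comparison. MRPS21 drops from 98.0 to 6.62 in the RPE1* 21/3 comparison, while APH1A, PRPF3 and RPRD2 stay close together in all 4.

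The paralogs MRPS18A, MRPS18B and MRPS18C, 3 versions of 1 bacterial protein, were called in none of the lines. Their values in HCT116 5/4 were -0.09, -0.39 and 0.08, and in RPE1 5/3 12/3 0.30, 0.45 and 0.26, the highest being MRPS18B (adjusted p = 0.0737). MRPS18B differed between these lines by -0.84. Over the 4 lines the 75 genes gave 16 calls in 15 genes, 7 of the calls on gained chromosomes. MRPS30 alone was called in more than 1 line, in both lines with extra chromosome 5.

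The 2 lines with extra chromosome 5 did not rank the genes alike. The rank correlation of their fold changes over the 75 genes was 0.13, beside 0.06 over all 12273 genes tested in both. In the other 5 pairs of lines it ran from -0.15 to 0.19. RPE1 5/3 12/3 was the higher line in every difference past the threshold that involved it, with 12 genes against HCT116 5/4, 9 against HCT116* 8/3 c7 (12%, beside 14.3% of all genes and 7.29% in that direction) and 7 against RPE1* 21/3 (9.33%, beside 10.1% and 4.57% in that direction). These genes include some on chromosomes 5 and 12, which RPE1 5/3 12/3 gained. They were MRPL36, MRPS27, MRPL22 and MRPS35 against HCT116 5/4, and the same genes with MRPS36 and MRPS30 against HCT116* 8/3 c7. Against RPE1* 21/3 they were MRPS27, MRPL51, MRPL36, MRPS30 and MRPS35, and MRPS21, which fell in RPE1* 21/3, also differed. HCT116 5/4 differed in 5 genes from HCT116* 8/3 c7 (6.67%, beside 17.4%) and in 2 from RPE1* 21/3 (2.67%, beside 10.9%). HCT116* 8/3 c7 and RPE1* 21/3 differed in 2 genes (2.67%, beside 3.78%), MRPS21 and MRPS6.

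Other genes of mitochondrial translation had medians of the same sign as the ribosomal proteins in the lines with extra chromosome 5. The 7 mitoribosome proteins with other symbols had medians of -0.40 in HCT116 5/4 and 0.26 in RPE1 5/3 12/3. In HCT116 5/4, 6 of the 7 lay below 0 and 2 were called lower, where 9.83% of all genes were called lower and 10.8% higher. The called genes were CHCHD1, lower by 0.69 (adjusted p = 0.0138), and MRP63, now called MRPL57, lower by 0.75 (adjusted p = 0.00416). Of 19 translation factors, with medians of -0.18 and 0.24, GFM2, a factor of ribosome recycling encoded on chromosome 5, rose by 1.03 in HCT116 5/4 (adjusted p = 8.99e-05). MRRF, the recycling factor that acts with it, fell by 0.71 (adjusted p = 0.00431) and TACO1, a translational activator of COX1, fell by 0.62 (adjusted p = 0.0254). Of 32 assembly and rRNA factors, with medians of -0.28 and 0.05, 26 lay below 0 in HCT116 5/4. There 4 were called lower, beside the same 9.83% of all genes. The 4 called were NSUN4, an rRNA methyltransferase, lower by 0.77, and TFAM, which packages mitochondrial DNA, lower by 0.66. The helicase DDX28 was lower by 0.65 and the pseudouridine synthase RPUSD4 by 0.61. Their adjusted p lay between 0.00144 and 0.0387. In RPE1 5/3 12/3, where 8.13% of all genes were called higher, 2 of the 58 genes were called higher. RPUSD4 rose by 1.08 (adjusted p = 1.69e-07) and the GTPase NOA1 by 0.64 (adjusted p = 0.00204). In RPE1* 21/3 the chromosome 21 gene YBEY, an endoribonuclease, rose by 0.83 (adjusted p = 0.00347). In HCT116* 8/3 c7, 0 of these 58 genes were called, and 2 had an adjusted p under 0.05 in the DESeq2 fit, while 1 higher and 2 lower had an unadjusted p under 0.05.

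Markers of the labelled cells were checked in the same tables. The epithelial genes CDH1 and EPCAM had means of 1685 to 5683 in the HCT116 comparisons. KRT19 (18421 and 19183) and CDX2 (337 and 392) were also expressed there, and KRT19 was low in the RPE1 comparisons (9.96 and 6.15). KRT8 and KRT18 were high in all 4 comparisons, with means of 12481 to 19618 in those of RPE1. VIL1 was listed in no comparison, and LGALS4 only in HCT116* 8/3 c7, with a mean of 2.32. Of the 6 colon epithelial markers that passed the filter in HCT116 5/4, CDH1 and EPCAM were lower by 2.34 and 2.57 on the log2 scale and KRT8 and KRT18 were higher by 1.25 and 1.57, with a median of -0.04 over the 6. Of the mesenchymal genes VIM was higher by 2.74 and FN1 by 0.90, and COL1A1 was lower with a log2 fold change of -0.99. The RPE1 comparisons had high means of VIM (110087 and 175391) and FN1. Of the retinal pigment epithelial markers, MITF was expressed (means of 1439 and 1124) and BEST1 low (42.7 and 41.3). RPE65 (10.4 and 4.58) and RLBP1 (32.4 and 4.77) were lower still. MITF was lower in the HCT116 comparisons (67.4 and 62.0), and RLBP1 was not listed there. RPE65 was higher there (287 and 194), and rose by 2.26 in HCT116 5/4. PMEL was also higher in the HCT116 comparisons (97.1 and 137) than in the RPE1 comparisons (17.8 and 14.8). The markers thus did not all follow the labels. In RPE1 5/3 12/3, RLBP1 was higher by 3.35, with log2 fold changes of -3.27 for RPE65, -1.23 for BEST1 and -1.03 for MITF, and of -3.18 for COL1A1. The part of these differences in the values of the ribosomal protein genes was not tested.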

How the data were processed

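Total RNA of 24 libraries was sequenced with 25000000 single reads of 100 bp per library, per the labels. The authors removed adapters with cutadapt, mapped reads to hg19 with TopHat2 2.0.10, counted them on RefSeq exons with featureCounts 1.4.3 and fitted DESeq2 to each aneuploid line and its parent. Those 4 fits are what the tables contain. The signal is the authors' mean of normalized counts over both groups, deposited with the log2 fold change and its standard error. The score is the deposited Wald statistic, and the p-values are those the authors derived from it, adjusted by Benjamini-Hochberg over each table. Values per library were not used here. The design had counts per library as its other option, and the deposited values therefore stand in for a count model. Replicate error is known only through the standard errors, and the fit's shrinkage of fold changes draws them towards 0. This shrinkage was strongest in HCT116* 8/3 c7.

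Only genes whose mean reached 10 entered, and calls needed an adjusted p under 0.05 together with a log2 fold change beyond 0.6 in either direction. Positions came from GENCODE on GRCh37, with 94.7% to 95.2% of genes placed by symbol or by a synonym. The counts of a line and its parental line were computed from the mean and the fold change. Lines were compared by a two-sided normal test of the difference, adjusted over all genes and 6 pairs. The test was also run on fold changes simulated for HCT116 5/4 and RPE1 5/3 12/3. These were drawn with the same normal errors that the test assumes, and adjusted within that pair only. The simulation therefore cannot show whether the test holds for the deposited values. Computation used scipy 1.17.1, pandas 2.3.3 and numpy 2.4.6 under Python 3.11.15, and matplotlib 3.10.9 drew the figures.

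The members and lists were chosen with earlier results of these data known. Named were members called in a line or with an adjusted p under 0.05 in at least 2 lines, on a gained chromosome, among the 3 highest or lowest fold changes of a line or levels per kb, or with the 3 smallest adjusted p-values of a difference between lines. The MRPS18 paralogs, MRPS30, MRPS36 and the called genes of other lists were also named. Genes beside members, MRPL10, MRPL48, genes below 0 in all lines and the stalk and exit tunnel groups were added after their values were seen. Alternatives were other fold thresholds, a mean of at least 100, p-values adjusted over the filtered genes, centred fold changes, the shrinkage undone and, for differences between lines, adjustment within each pair. Some marker genes are not reported here.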

Additional observations from a re-analysis of the deposited data

Results flagged for a closer look

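The results below were picked out because the fold change of a gene differed between lines by the test of the difference itself. Of 450 comparisons of a gene between lines, 37 passed, in 18 genes. By pair of lines, 2.67% to 16% of the 75 genes differed, beside 3.78% to 17.4% of all genes. In every pair the share was lower among the 75 genes than among all genes. Values are differences of log2 fold changes.

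MRPS21 was lower in RPE1* 21/3 than elsewhere. HCT116* 8/3 c7 minus RPE1* 21/3 was 3.79, RPE1 5/3 12/3 minus RPE1* 21/3 was 3.42 and HCT116 5/4 minus RPE1* 21/3 was 3.38.

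HCT116 5/4 minus RPE1 5/3 12/3 was -1.41 for MRPL36, -1.35 for MRPS27, -1.26 for MRPL12, -1.19 for MRPL21, -1.17 for MRPL11, -0.98 for MRPL10, -0.97 for MRPL22, -0.86 for MRPS35, -0.84 for MRPL48, -0.84 for MRPS18B, -0.81 for MRPS7 and -0.80 for MRPL49.

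HCT116* 8/3 c7 minus RPE1 5/3 12/3 was -1.21 for MRPS27, -1.18 for MRPS36, -0.97 for MRPL21, -0.95 for MRPL36, -0.91 for MRPL22, -0.76 for MRPS6, -0.68 for MRPS35, -0.62 for MRPS30 and -0.59 for MRPL10.

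RPE1 5/3 12/3 minus RPE1* 21/3 was 1.17 for MRPS27, 0.93 for MRPL21, 0.86 for MRPL51, 0.86 for MRPL36, 0.78 for MRPS30 and 0.72 for MRPS35.

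HCT116 5/4 minus HCT116* 8/3 c7 was 1.24 for MRPS6, 0.78 for MRPS30, -0.82 for MRPL38, -0.95 for MRPS7 and -1.01 for MRPL12. HCT116 5/4 minus RPE1* 21/3 was also 0.94 for MRPS30. HCT116* 8/3 c7 minus RPE1* 21/3 was -1.21 for MRPS6.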

How the results depend on the processing

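A fold threshold of 1 left 0 members called in HCT116 5/4 and 0 in RPE1 5/3 12/3, where the adjusted p-values are unaffected by it. With no fold threshold, 2 were called in HCT116* 8/3 c7 and 13 in RPE1 5/3 12/3. With a mean of at least 100, 0 were called in RPE1* 21/3 and 0 had an adjusted p under 0.05, since MRPS21 has a lower mean. For the other lists, alternatives chosen after seeing the data called, with no fold threshold, 1 translation factor and 1 assembly factor in HCT116* 8/3 c7 and 3 and 4 in RPE1 5/3 12/3. With the shrinkage undone 1 translation factor was called in HCT116* 8/3 c7. Named members were also followed singly under 4 alternatives (no fold threshold, shrinkage undone, centred fold changes, p adjusted over the filtered genes). Of these 416 values, 408 kept their direction and their side of the threshold, 7 passed it newly without the fold threshold, and 1 turned its sign, MRPS26 in HCT116* 8/3 c7, which was -0.00197 when centred. Counts of members that differed between lines stayed within 1.5 times of those reported, with 11 to 14 for HCT116 5/4 against RPE1 5/3 12/3, 8 to 9 for HCT116* 8/3 c7 against RPE1 5/3 12/3 and 6 to 8 between the RPE1 lines. With the shrinkage undone the fall of MRPS21 was -4.65. No paired analysis was possible because the tables hold no values of single libraries, and for the same reason leaving out single libraries was not run. Library depth behind each value is unknown. In HCT116 5/4, where a typical member has an SE of 0.23, changes under the fold threshold are often not detectable.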
